A study of Homo sapiens with 6 samples.

Results

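Collagen genes encode the chains of the collagen triple helix, and all rows of the gene-count table with a symbol made of COL, a number, A and a number were taken, which gave 44 genes of the 40295 listed. Of these, 30 were detected, with 10 or more counts in at least 3 of the 6 libraries, and 14 were not. The cells were HDQ-P1, an established human breast carcinoma line, grown in high glucose DMEM with fetal bovine serum and an antibiotic-antimycotic supplement. One group of 3 libraries came from untreated cells, and the other group of 3 came from cells given Y-320 at 1 μM over 48 h. Y-320 is a phenylpyrazoleanilide, a small molecule studied as an enhancer of premature stop codon readthrough. The labels name no aminoglycoside treatment for these libraries, and the contents of the antibiotic supplement in the medium are not stated. No solvent is described for the untreated cells, so the compound and its solvent cannot be told apart. The labels call the libraries replicates and do not say that they came from separate cultures, so the p-values measure the spread between these libraries, which may be technical. A single cell line without stroma was measured, and RNA levels say nothing of secreted collagen.

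Collagens are built from 3 chains wound into a triple helix, with the chains either identical or drawn from a few genes of the same type. Fibrillar collagens (types I, II, III, V, XI, XXIV and XXVII) form the banded fibrils of connective tissue, type IV forms the sheet-like network of basement membranes, type VI forms beaded filaments near cell surfaces, and type VII forms the fibrils that anchor the epidermal basement membrane to the dermis. Fibril-associated collagens sit on the surface of fibrils, while transmembrane collagens span the plasma membrane. In breast tissue most fibrillar collagen is made by fibroblasts, and epithelial cells contribute chiefly to the basement membrane. Carcinoma lines can also express fibrillar chains.

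Levels are given as estimated counts, or as normalised CPM, which are counts scaled to a common library total with the TMM method of edgeR. The libraries held 21045401 to 22740535 counts, and 16357 to 16498 genes had at least 10 counts in a library. Where no count was seen in a library, up to 3 counts (0.131 to 0.144 CPM) cannot be told from none in that library, a limit that covers counting error only. Differences are log2 fold changes of Y-320 over untreated, with the standard error (SE) and the Benjamini-Hochberg adjusted p of edgeR's quasi-likelihood test over 16580 genes. A gene was called at an adjusted p under 0.05. Across all genes tested, 26.2% were called higher and 25.4% lower with Y-320, and the median log2 fold change was 0.00097, with quartiles at -0.21 and 0.22. As a check of the carcinoma line, all 12 epithelial markers listed passed the filter, and their summed level was 13040 to 13655 CPM in untreated cells and 8407 to 8490 CPM with Y-320. Of these markers, 9 were called lower and 3 higher, and the keratin KRT7 stood at 3716 ± 106 CPM (mean ± SD, n = 3) in untreated cells and 2310.4 ± 14.7 CPM with Y-320. EPCAM, an epithelial adhesion molecule and one of the 3, went from 304 ± 6.90 CPM in untreated cells to 396 ± 8.96 CPM with Y-320. THY1, a surface protein of fibroblasts, had at most 1 count in any library, but other mesenchymal markers were expressed in untreated cells, among them VIM (632 CPM), FN1 (147 CPM) and LUM (46.5 CPM).

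Among the 30 collagen genes tested, 16 were called lower with Y-320 (53.3%), 6 were called higher (20%) and 8 were not called. The share lower can be read against the 25.4% of all genes, and the share higher against 26.2%. The collagen genes were chosen with earlier results of these data known, so these shares are descriptions. Their median log2 fold change was -0.54, with a range from -1.79 for COL2A1 to 1.52 for COL5A3. A call with a log2 fold change of -1 or lower was made for 7 of the 30 collagen genes, beside 2.59% of all genes. A call with a log2 fold change of at least 1 was made for 1, beside 2.43% of all genes. All 3 Y-320 libraries lay below all 3 untreated libraries for 17 collagen genes (29.4% of all genes tested) and above them for 7 (29.8% of all genes tested), while the groups overlapped for 6. In bulk libraries, fewer cells of a type and less RNA per cell cannot be told apart. Of the tested genes, COL2A1 reached 10 counts in untreated libraries alone and COL5A3 in Y-320 libraries alone, so the filter favoured a difference for both. Among the 27 collagen genes with 10 counts in every library, 15 were lower and 5 higher, with a median of -0.55. Of these 27, 6 were called at a log2 fold change of -1 or lower and 0 at 1 or higher.

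**Figure D1:**
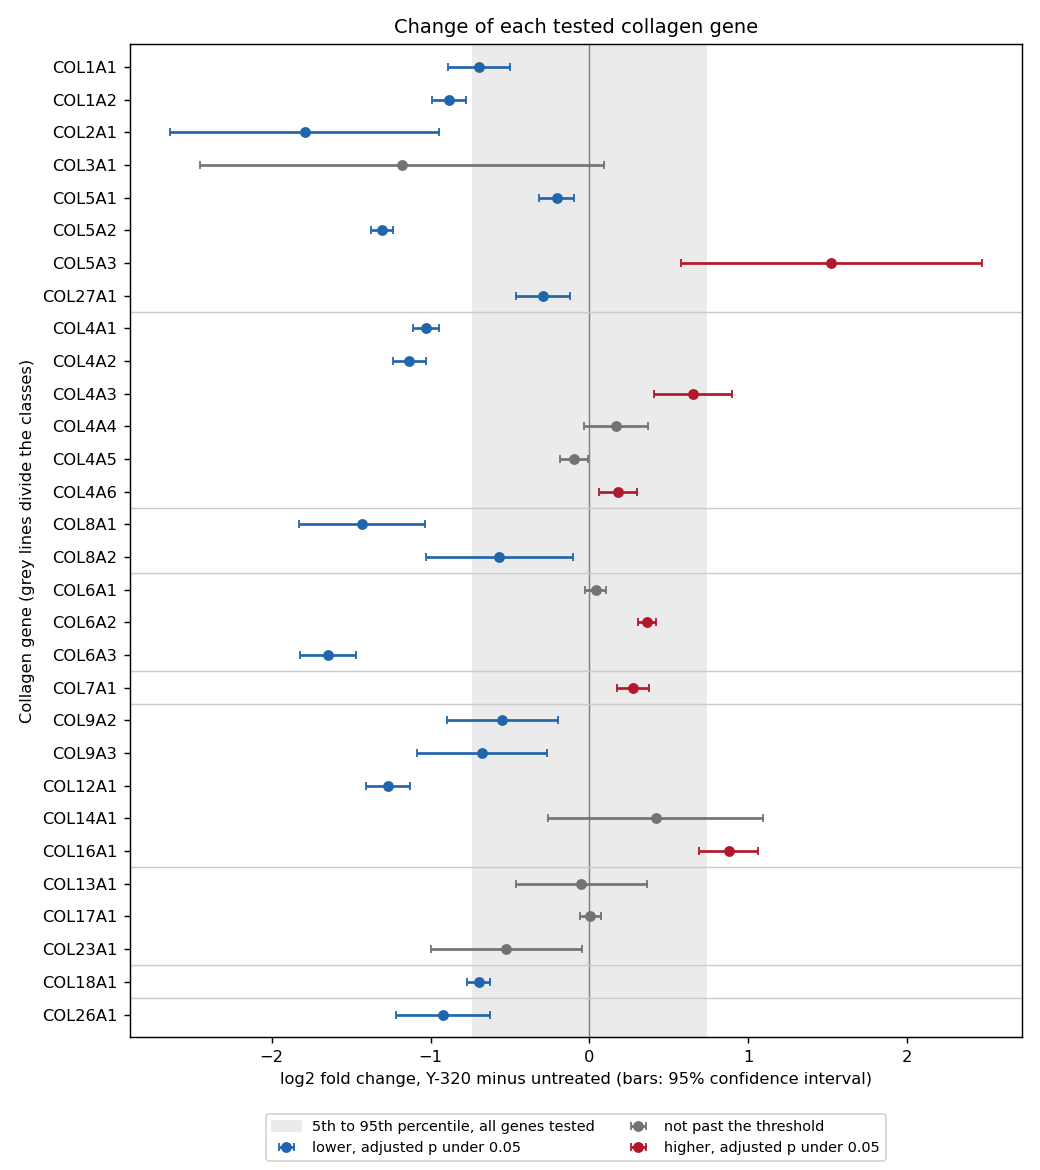
Log2 fold change of each tested collagen gene, Y-320 over untreated (horizontal axis), with the 95% confidence interval from edgeR, the genes grouped by class, colours for calls at an adjusted p under 0.05, and shading from the 5th to the 95th percentile of all genes tested (-0.73 to 0.73). Of the 30 genes, 16 were called lower and 6 higher, COL17A1 and COL6A1 lay close to 0, and COL3A1 had the interval from -2.45 to 0.089.

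The calls were uneven across the classes. Of 8 fibrillar genes tested, 6 were lower, 1 was higher and 1 was not called. Type IV split evenly, with 2 of 6 genes lower, 2 higher and 2 not called. Both short-chain genes tested (COL8A1 and COL8A2) were lower, and of 5 fibril-associated genes 3 were lower, 1 was higher and 1 was not called. None of the 3 transmembrane genes tested was called in the edgeR test, nor at an unadjusted p under 0.05 other than COL23A1. The sum over all 44 collagen genes was 2107 ± 76.4 CPM in untreated cells and 1706 ± 28.3 CPM with Y-320, a ratio of 0.810. Every Y-320 library lay below every untreated library in this sum, and the exact permutation test (two-sided) gave p = 0.1, the smallest value that 3 against 3 allows. The same ratio was 0.630 for the fibrillar genes and 0.708 for the type IV genes, but 1.04 for the type VI genes, whose libraries overlapped between groups (exact permutation p = 0.2). Abundant genes weigh most in these sums. The median log2 fold change of the genes tested was -0.79 for fibrillar and 0.037 for type IV genes. For type VI it was 0.039, with a range from -1.65 to 0.36.

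Type IV collagen genes lie in head-to-head pairs, in which 2 genes start close together and run in opposite directions. The segments between the start sites are printed because each separates the RefSeq start sites of its pair. Calls differed within COL4A3 and COL4A4 and within COL4A5 and COL4A6, while COL4A1 and COL4A2 were both lower. Any part of these segments in the calls was not tested. The GENCODE span of COL4A2 takes in the first segment, since other COL4A2 transcripts begin elsewhere. They come from RefSeq on GRCh38.p14, read on the plus strand, which held 32 of the 44 collagen genes in its promoter table. Capitals mark matches to a GC box (GGGCGG or CCGCCC) or to CCAAT or ATTGG, searched on both strands with no overlap between these motifs. For the last pair, 250 of the 379 bases between the start sites are shown, those next to COL4A5.
COL4A1 and COL4A2, chr13:110307158-110307283: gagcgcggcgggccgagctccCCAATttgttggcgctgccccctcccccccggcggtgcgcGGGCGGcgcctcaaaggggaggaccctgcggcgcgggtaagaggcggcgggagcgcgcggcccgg
COL4A4 and COL4A3, chr2:227164489-227164623: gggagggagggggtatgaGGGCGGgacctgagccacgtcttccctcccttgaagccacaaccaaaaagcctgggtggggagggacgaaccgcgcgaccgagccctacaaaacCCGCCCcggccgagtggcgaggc
COL4A6 and COL4A5, chrX:108439588-108439837: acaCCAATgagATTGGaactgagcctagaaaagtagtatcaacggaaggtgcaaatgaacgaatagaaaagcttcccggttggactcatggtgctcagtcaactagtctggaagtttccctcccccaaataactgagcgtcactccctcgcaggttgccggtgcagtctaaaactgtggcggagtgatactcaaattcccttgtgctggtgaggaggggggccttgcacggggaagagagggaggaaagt

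The first segment (126 bases, 80.2% G or C) held 1 GC box and 1 CCAAT match, the second (135 bases, 68.1% G or C) held 2 GC boxes, and the third (51.2% G or C) held 2 CCAAT matches. Among 35116 RefSeq promoters cut to the same lengths, a GC box was present in 34.6%, 35.5% and 42.6%, and a CCAAT match in 21.1%, 22.1% and 32.0%. The letters TATAAA were in none of the 3 segments on either strand, and in 5.87%, 6.13% and 10.7% of all promoters. Matches of this kind are descriptions of these letters, not sites of binding.

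Both chains of the common basement membrane collagen fell with Y-320. COL4A1 (ENSG00000187498, chr13:110148963-110307157, minus strand) had 2301, 2251 and 2461 counts in untreated libraries and 1175, 1191 and 1167 with Y-320. Its partner COL4A2 (ENSG00000134871, chr13:110305812-110513209, plus strand) had 1633, 1732 and 1755 counts, and 808, 775 and 819 with Y-320. The groups were far apart for both genes, which went to about the same fraction of the untreated level. COL4A1 went from 108 ± 3.63 to 52.9 ± 1.55 CPM (log2 fold change -1.03, SE 0.037, edgeR adjusted p = 8.76e-09), and COL4A2 from 78.8 ± 4.56 to 35.9 ± 0.893 CPM (-1.13, SE 0.047, edgeR adjusted p = 2.54e-08). Their annotated spans overlap on opposite strands, and whether counting used strand is not given in the sources used here.

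Of the 4 chains of the minor type IV networks, known from glomerular and other specialised basement membranes, COL4A3 and COL4A6 were called higher and COL4A4 and COL4A5 were not called. COL4A3 (ENSG00000169031, chr2:227164624-227314792, plus strand) had 108, 113 and 128 counts in untreated libraries and 209, 163 and 193 with Y-320, without overlap. It rose from 5.37 ± 0.455 to 8.44 ± 0.875 CPM (log2 fold change 0.65, SE 0.11, edgeR adjusted p = 6.19e-04). COL4A4 (ENSG00000081052, chr2:227002714-227164453, minus strand), its head-to-head partner and a chain of the same trimer, had 379, 344 and 474 counts, and 456, 451 and 476 with Y-320. The untreated library with 474 counts lay within the Y-320 range, and COL4A4 was not called (log2 fold change 0.17, SE 0.090, edgeR adjusted p = 0.145). Without untreated replicate 3 it was called higher at 0.30 (edgeR adjusted p = 0.00381).

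On the X chromosome, COL4A5 (ENSG00000188153, chrX:108439838-108697545, plus strand), which enters both minor networks, had 1790, 1581 and 1731 counts in untreated libraries and 1596, 1661 and 1650 with Y-320. The groups overlapped, and the gene was not called (log2 fold change -0.10, SE 0.040, 95% confidence interval -0.185 to -0.00645, edgeR adjusted p = 0.0698), although scaling by the upper quartile gave -0.12 with an adjusted p of 0.0217. COL4A6 (ENSG00000197565, chrX:108155607-108439497, minus strand) had 684, 682 and 650 counts, and 839, 719 and 792 with Y-320. It rose by a small amount (log2 fold change 0.18, SE 0.055, edgeR adjusted p = 0.0185). That call was lost without untreated replicate 3, Y-320 replicate 1 or Y-320 replicate 3, with values of 0.14, 0.15 and 0.17, and also with DESeq2 (adjusted p = 0.0666).

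**Figure D2:**
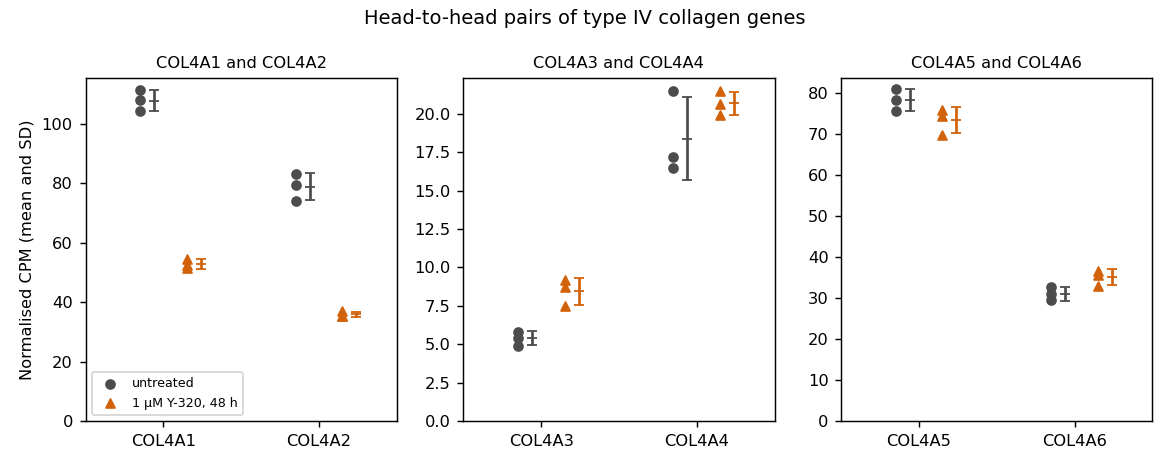
Normalised CPM of the 6 type IV collagen genes in each library (linear axes from 0, a panel per head-to-head pair), with the mean and SD of each group beside the points. COL4A1 and COL4A2 lay lower in all 3 Y-320 libraries, COL4A3 lay higher, and the points of COL4A4 and COL4A5 overlapped between groups.

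The type I genes COL1A1 and COL1A2 and the type V genes COL5A1 and COL5A2 fell, by unequal amounts, while the weakly expressed type V gene COL5A3 was called higher. COL1A1 (ENSG00000108821, chr17:50184101-50201632, minus strand), the major chain of type I collagen, had 1044, 957 and 1211 counts in untreated libraries and 621, 753 and 661 with Y-320. It fell from 49.3 ± 4.83 to 30.5 ± 3.70 CPM (log2 fold change -0.70, SE 0.087, edgeR adjusted p = 7.40e-05). Its partner chain COL1A2 (ENSG00000164692, chr7:94394895-94431227, plus strand) had 3061, 3133 and 3421 counts, and 1804, 1856 and 1708 with Y-320. COL1A2 fell from 148 ± 8.40 to 80.3 ± 4.11 CPM (-0.88, SE 0.048, edgeR adjusted p = 1.55e-07). In neither type I gene did the groups overlap.

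Type V collagen forms the core on which type I fibrils assemble. Its chain gene COL5A2 (ENSG00000204262, chr2:189031898-189225312, minus strand) had 6157, 5875 and 6221 counts in untreated libraries and 2504, 2457 and 2623 with Y-320. The replicates were tight, and COL5A2 fell from 281 ± 1.66 to 113.5 ± 4.48 CPM (log2 fold change -1.31, SE 0.031, edgeR adjusted p = 7.65e-10). COL5A1 (ENSG00000130635, chr9:134641803-134844843, plus strand), the chain paired with it, had 6534, 6726 and 7376 counts, and 5893, 6104 and 6398 with Y-320. The groups of COL5A1 did not overlap in CPM and it fell much less, from 318 ± 19.6 to 275 ± 15.8 CPM (-0.21, SE 0.050, edgeR adjusted p = 0.00545). This value is close in size to the median absolute log2 fold change of all genes tested, 0.21. COL5A3 (ENSG00000080573), a chain of a rarer type V trimer, had 6, 6 and 4 counts, and 15, 23 and 10 with Y-320. It was called higher (1.52, SE 0.43, edgeR adjusted p = 0.0122), but lost the call without untreated replicate 3 (1.34, adjusted p = 0.0525), without Y-320 replicate 2 (1.15, adjusted p = 0.0672) and with DESeq2 (adjusted p = 0.0535).

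COL3A1 (ENSG00000168542, chr2:188974373-189012746, plus strand), the chain of type III collagen, had 91, 117 and 320 counts in untreated libraries and 40, 159 and 38 with Y-320. Untreated replicate 3 and Y-320 replicate 2 each held over 1.8 times the counts of the other libraries of their group, and the groups overlapped. The log2 fold change was -1.18 (SE 0.57, 95% confidence interval -2.45 to 0.089, edgeR adjusted p = 0.111), and COL3A1 was not called. Without Y-320 replicate 2 it was called lower at -2.22 (adjusted p = 0.00848), and without untreated replicate 3 the value was -0.45. DCN, a fibroblast proteoglycan, was high in the same 2 libraries, with 8.36, 19.9 and 52.1 counts in untreated cells and 4.29, 29.7 and 5.78 with Y-320. No other of the 10 mesenchymal markers tested lay over 1.8 times above the rest of its group in both. With both libraries left out, COL3A1 was called lower at -1.48 (edgeR adjusted p = 0.00105), and of all collagen genes 6 were higher and 14 lower. The 2 libraries were chosen after their COL3A1 values were seen. Leaving them out narrowed the spread of COL3A1 by choice, so its call in that fit is no support for a difference. Over all genes, that fit called 3503 higher and 3279 lower of 16667. The annotated ends of COL3A1 and COL5A2 lie 19151 bases apart on chromosome 2, and COL5A2 showed no such spread between libraries.

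Among the remaining fibrillar genes, COL27A1 (ENSG00000196739), found in cartilage, had 354, 332 and 338 counts in untreated libraries and 325, 274 and 261 with Y-320 (log2 fold change -0.29, SE 0.076, edgeR adjusted p = 0.00809). COL2A1 (ENSG00000139219), the main collagen of cartilage, had 19, 12 and 24 counts, and 4, 6 and 6 with Y-320. At these low counts COL2A1 was called lower (-1.79, SE 0.38, edgeR adjusted p = 0.00258).

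Type VI collagen is assembled from COL6A1, COL6A2 and a further chain such as COL6A3, and the genes of this trimer moved apart. COL6A3 (ENSG00000163359, chr2:237324003-237414328, minus strand), the longest of these chains, had 1673, 1600 and 1897 counts in untreated libraries and 533, 638 and 524 with Y-320. It fell from 79.5 ± 5.62 to 25.4 ± 3.33 CPM (log2 fold change -1.65, SE 0.079, edgeR adjusted p = 6.37e-08), and all Y-320 libraries were far below all untreated ones. COL6A2 (ENSG00000142173, chr21:46098112-46132848, plus strand) had 5170, 5082 and 5396 counts, and 7192, 6685 and 6819 with Y-320. COL6A2 rose from 241 ± 5.72 to 309.5 ± 4.66 CPM (0.36, SE 0.026, edgeR adjusted p = 1.25e-06). COL6A1 (ENSG00000142156, chr21:45981770-46005050, plus strand), its neighbour 93063 bases away in the same orientation, had 4858, 4828 and 5171 counts, and 5450, 5147 and 5107 with Y-320. The COL6A1 groups overlapped in CPM (0.04, SE 0.030, 95% confidence interval -0.027 to 0.105, edgeR adjusted p = 0.305). The alternative chains were at or near 0, with no COL6A5 count in any library and at most 2 COL6A6 counts.

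Collagens of the epithelial adhesion zone did not follow the fibrillar genes. COL7A1 (ENSG00000114270, chr3:48564073-48595329, minus strand), the chain of the anchoring fibril, had 3689, 3540 and 4122 counts in untreated libraries and 4601, 4718 and 4812 with Y-320. It rose from 175 ± 10.7 to 211 ± 8.78 CPM (log2 fold change 0.28, SE 0.045, edgeR adjusted p = 4.55e-04), with no overlap. COL17A1 (ENSG00000065618, chr10:104031286-104085880, minus strand), the transmembrane collagen of hemidesmosomes whose loss causes a skin blistering disease, had 1525, 1448 and 1530 counts, and 1609, 1494 and 1544 with Y-320. Its level was 69.3 ± 0.180 CPM without the compound and 69.5 ± 1.03 CPM with it, and the 95% confidence interval of the log2 fold change ran from -0.061 to 0.070 (edgeR adjusted p = 0.911). The other transmembrane genes were weak. COL13A1 (ENSG00000197467) had 40, 48 and 56 counts, and 44, 49 and 50 with Y-320 (-0.05, edgeR adjusted p = 0.845). COL23A1 (ENSG00000050767) had 46, 50 and 61 counts, and 29, 44 and 39 with Y-320, a difference of -0.52 that missed the threshold (edgeR adjusted p = 0.0629) and passed it without Y-320 replicate 2 (adjusted p = 0.0436).

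COL18A1 (ENSG00000182871, chr21:45405165-45513720, plus strand), a basement membrane collagen and the source of endostatin, had 2470, 2355 and 2587 counts in untreated libraries and 1645, 1544 and 1515 with Y-320. It fell from 114 ± 2.82 to 70.4 ± 1.84 CPM (log2 fold change -0.70, SE 0.033, edgeR adjusted p = 5.43e-08). Of its 31-base words, 16.8% occur in another annotated gene, so its estimated counts are less certain than those of the other collagen genes, for which this share was at most 6.83%.

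Fibril-associated genes included the other large opposite changes. COL12A1 (ENSG00000111799, chr6:75084326-75206267, minus strand), which decorates type I fibrils, had 522, 509 and 569 counts in untreated libraries and 235, 212 and 237 with Y-320. It fell from 24.6 ± 1.08 to 10.2 ± 0.499 CPM (log2 fold change -1.27, SE 0.062, edgeR adjusted p = 7.25e-08). COL16A1 (ENSG00000084636, chr1:31652263-31704319, minus strand) had 151, 140 and 168 counts, and 281, 277 and 308 with Y-320. COL16A1 rose from 7.05 ± 0.486 to 13.0 ± 0.836 CPM (0.88, SE 0.084, edgeR adjusted p = 1.10e-05), which was the highest value among the collagen genes with 10 counts in every library. The type IX chains COL9A2 (ENSG00000049089) and COL9A3 (ENSG00000092758), known from cartilage, were at 3.07 to 4.75 CPM in untreated cells. They were called lower at -0.55 (edgeR adjusted p = 0.0137) and -0.68 (edgeR adjusted p = 0.0105). COL9A2 lost its call without untreated replicate 2 (-0.49) or without Y-320 replicate 3 (-0.45). COL14A1 (ENSG00000187955) had 9 to 15 counts and was not called (0.42, edgeR adjusted p = 0.315).

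The short-chain genes and COL26A1 were weak and lower with Y-320. COL8A1 (ENSG00000144810, chr3:99638475-99799226, plus strand), a chain of the type VIII network of vessels and the cornea, had 81.6, 83.7 and 105 counts in untreated libraries and 32.1, 39.9 and 31.3 with Y-320. It fell from 4.15 ± 0.538 to 1.55 ± 0.240 CPM (log2 fold change -1.43, SE 0.18, edgeR adjusted p = 6.87e-05). COL8A2 (ENSG00000171812), the other chain of this network, had 36, 40 and 38 counts, and 24, 30 and 25 with Y-320. COL8A2 was called lower (-0.57, SE 0.21, edgeR adjusted p = 0.0416), and only 1 of 6 leave-one-out fits kept that call, with adjusted p up to 0.122. COL26A1 (ENSG00000160963) had 204, 142 and 158 counts, and 88, 92 and 93 with Y-320 (-0.92, SE 0.13, edgeR adjusted p = 2.13e-04).

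**Figure D3:**
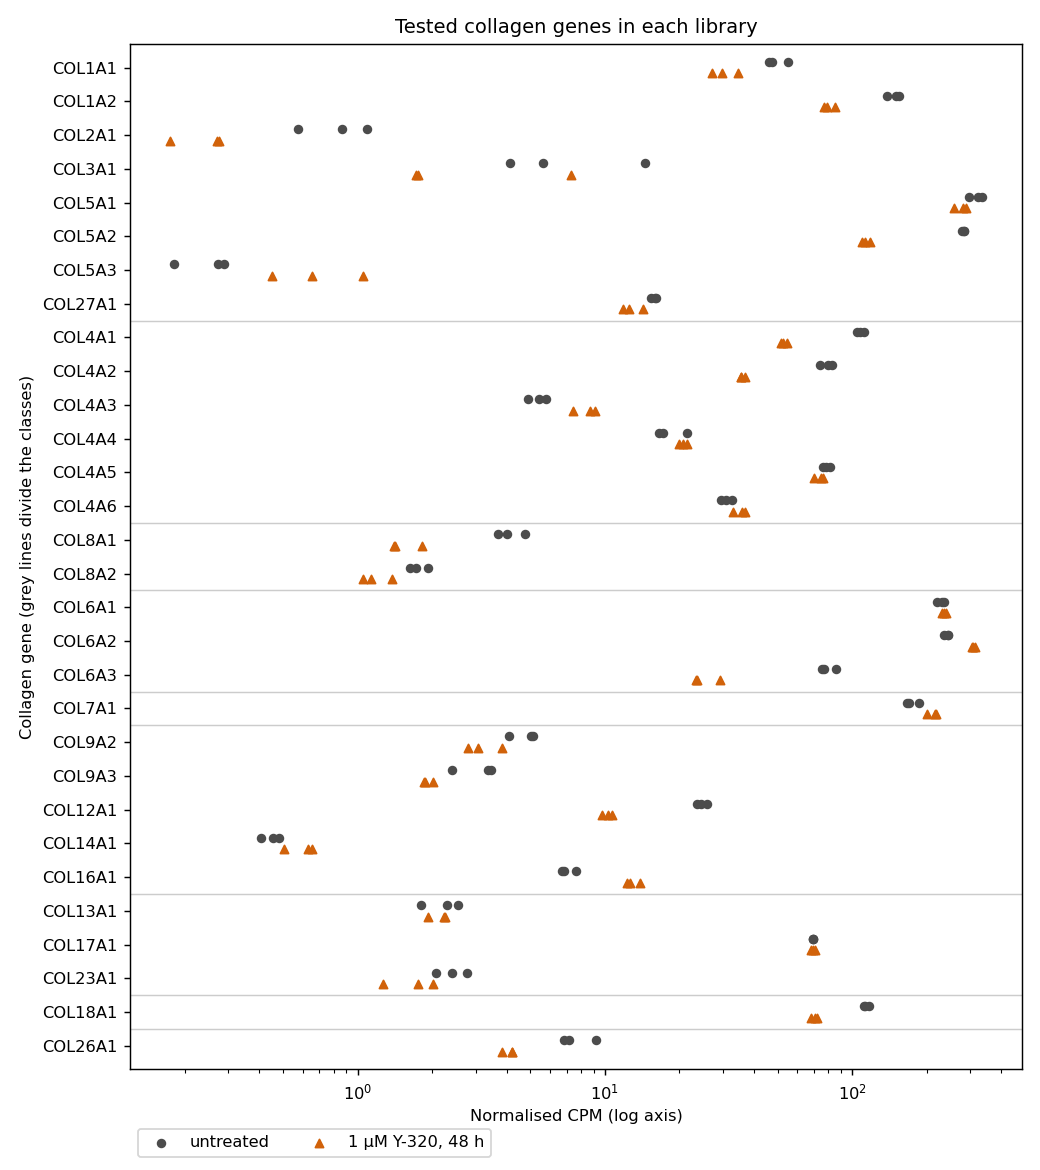
Normalised CPM of the 30 tested collagen genes in each of the 6 libraries (log axis), with 1 row per gene and lines between classes. Points of COL5A2, COL4A1, COL6A3 and COL12A1 formed separate groups, whereas COL3A1 was spread over the widest range within a group among the genes above 1 CPM.

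The 14 collagen genes not detected were COL6A5, COL6A6, COL9A1, COL10A1, COL11A1, COL11A2, COL15A1, COL19A1, COL20A1, COL21A1, COL22A1, COL24A1, COL25A1 and COL28A1. COL6A5 and COL22A1 had 0 counts in all libraries. The limit of 0.131 to 0.144 CPM holds for a single library, and no limit over the libraries together was computed. COL25A1, a transmembrane collagen found with amyloid plaques, had 8, 12 and 16 counts in untreated libraries and 4, 4 and 2 with Y-320. COL20A1 had 3, 1 and 7.01 counts, and 18, 10 and 8.33 with Y-320. These 2 genes did not overlap between groups, and without the filter on low counts COL25A1 was called lower (log2 fold change -1.85, edgeR adjusted p = 0.00752) and COL20A1 higher (1.64, edgeR adjusted p = 0.0308). No other undetected collagen gene was called in that fit, which called 4343 genes higher and 4079 lower of 27170. Among genes passing the main filter, 29.8% lay higher and 29.4% lower without overlap. COL15A1, also without overlap, had at most 7.40 counts. COL28A1 reached 16.4 counts and overlapped between groups.

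To compare levels between genes, CPM was divided by the length in kilobases of the Ensembl canonical transcript. Per kilobase, COL6A2 was the most abundant collagen gene of untreated cells at 69.9 ± 1.66, followed by COL6A1 at 54.4 ± 1.79, COL5A2 at 41.1 ± 0.244, COL5A1 at 37.6 ± 2.32 and COL1A2 at 29.2 ± 1.66. None of these neighbours overlapped between libraries. COL18A1 (21.1), COL7A1 (18.9) and COL4A1 (16.5) came next, and then COL17A1 (12.3), COL4A2 (12.2) and COL4A5 (12.0), whose libraries overlapped. With Y-320, COL6A2 (89.8 ± 1.35) and COL6A1 (55.9 ± 0.971) again led, while COL5A1 (32.6) and COL7A1 (22.9) came next, ahead of COL5A2 (16.6). As a share of the summed collagen level per kilobase, COL6A2 went from 19.2% to 28.9% and COL5A2 from 11.3% to 5.34%. These levels depend on the length chosen. With the union of all exons, the untreated values were 45.1 for COL6A2, 41.3 for COL6A1, 38.4 for COL5A2 and 28.5 for COL5A1, and COL7A1 (15.7) passed COL1A2 (13.7).

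Ratios of CPM between chains that share a trimer show how unevenly partners moved. Of 10 listed pairs, 8 had both genes detected, and in 6 the groups did not overlap. Ratios of other gene pairs were not computed for comparison. Among single genes tested, 29.8% lay higher and 29.4% lower without overlap. Among the listed pairs, which did not include COL6A2 with COL6A3, the largest difference was in COL6A1 over COL6A3, which went from 2.88 to 9.30 (log2 difference 1.69). COL5A1 over COL5A2 went from 1.13 to 2.43 (log2 difference 1.10), and COL8A1 over COL8A2 from 2.36 to 1.31 (log2 difference -0.85). Smaller differences were found for COL6A1 over COL6A2 (0.949 to 0.759), COL4A5 over COL4A6 (2.53 to 2.09, with the nearest libraries at log2 ratios of 1.213 and 1.208) and COL4A1 over COL4A2 (1.37 to 1.47). Each of these 6 pairs had an exact permutation p of 0.1 (two-sided, adjusted over 8 pairs to 0.133), the smallest possible for 3 against 3, so none could pass 0.05. COL1A1 over COL1A2 stood at 0.333 and, with Y-320, at 0.378, with overlap (exact permutation p = 0.2, adjusted p = 0.229). COL9A2 over COL9A3 also overlapped (1.56 and 1.68, exact permutation p = 0.7). COL4A3 over COL4A4, added after their values were seen, went from 0.293 to 0.406 without overlap.

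**Figure D4:**
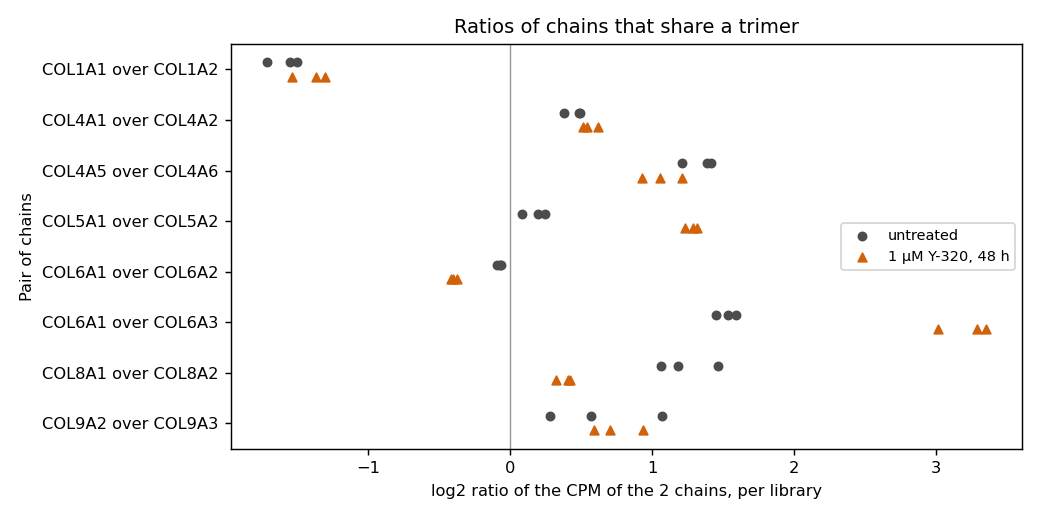
Log2 ratio of CPM between the chains of a trimer in each library (horizontal axis), for the 8 listed pairs with both genes detected. COL6A1 over COL6A3 and COL5A1 over COL5A2 lay more than 1 log2 unit higher in Y-320 libraries on average, and COL1A1 over COL1A2 overlapped between groups.

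Collagen chains are hydroxylated, glycosylated and folded in the endoplasmic reticulum, exported in large carriers, trimmed outside the cell and cross-linked. Of 39 genes for these steps, 37 were tested, and 19 were called higher with Y-320 (51.4%), 9 lower (24.3%) and 9 not called, with a median log2 fold change of 0.24. These shares can be read against 26.2% and 25.4% of all genes. This list, like the other lists here, was chosen with earlier results of these data known, so the shares are descriptions. LOX, the lysyl oxidase that starts cross-linking, had 328, 354 and 376 counts in untreated libraries and 1099, 1170 and 1153 with Y-320 (log2 fold change 1.65, SE 0.062, edgeR adjusted p = 1.21e-08). The prolyl 4-hydroxylase subunits P4HA1 (1.21, SE 0.029, edgeR adjusted p = 7.65e-10) and P4HA2 (1.12, SE 0.041, edgeR adjusted p = 1.04e-08) rose together. LARP6, which binds type I collagen mRNAs, also rose (0.81, SE 0.063, edgeR adjusted p = 2.21e-06). On the other side, LOXL4, another lysyl oxidase, had 1347, 1279 and 1322 counts, and 735, 493 and 494 with Y-320 (-1.24, SE 0.11, edgeR adjusted p = 4.57e-06). CREB3L1, a transcription factor of collagen secretion, fell from 6.11 ± 0.346 to 2.70 ± 0.233 CPM (-1.18, SE 0.12, edgeR adjusted p = 1.69e-05). ADAMTS2, which removes the amino-terminal propeptide of procollagen (-1.03, edgeR adjusted p = 0.00183), and P3H2, a prolyl 3-hydroxylase (-0.84, edgeR adjusted p = 2.79e-08), fell as well.

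**Figure D5:**
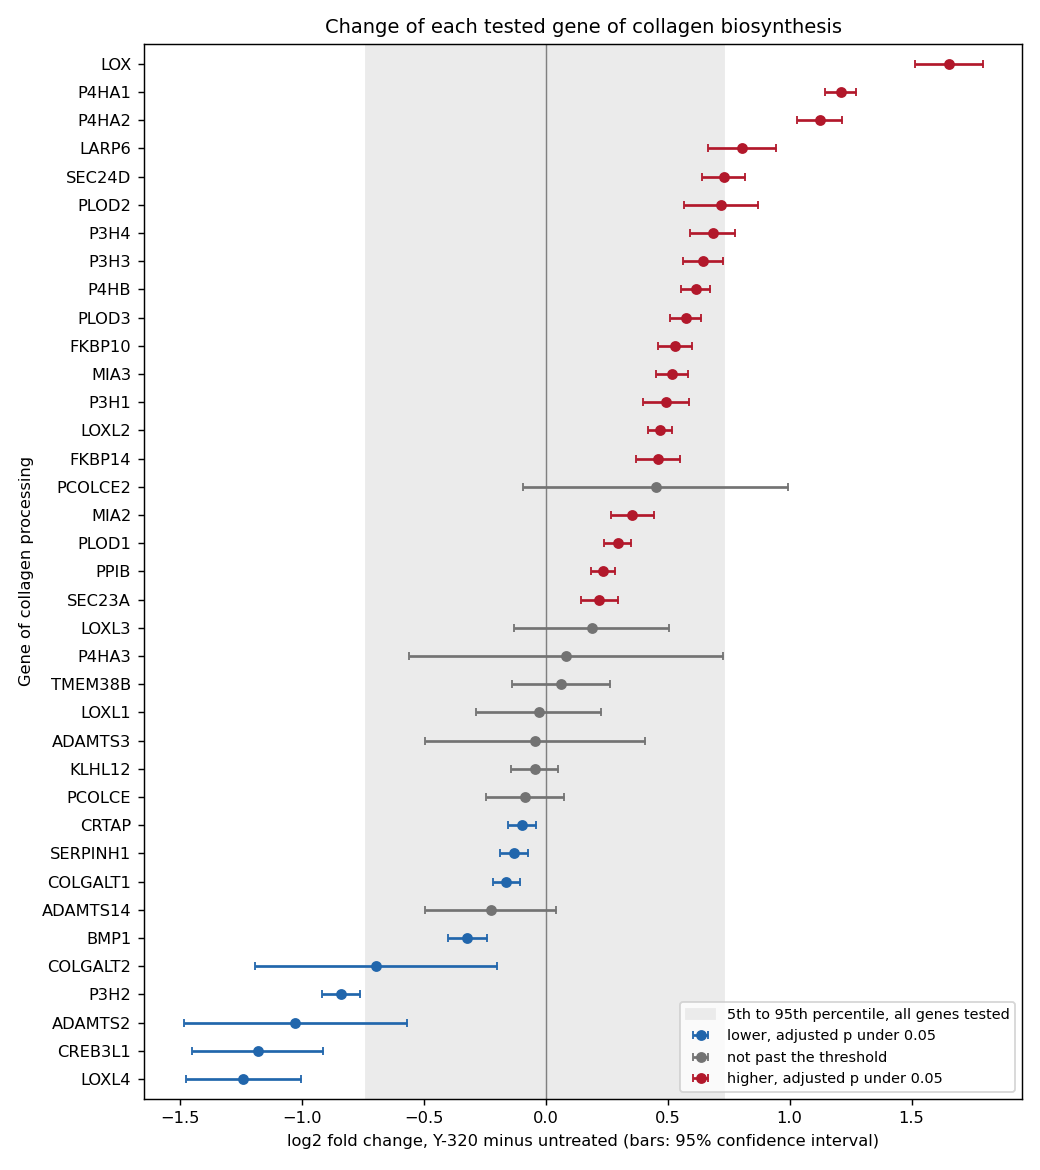
Log2 fold change of the 37 tested genes of collagen modification, export, processing and cross-linking (horizontal axis), Y-320 over untreated, with the 95% confidence interval, colours for calls, and shading from the 5th to the 95th percentile of all genes tested. LOX, P4HA1 and P4HA2 were above 1 and LOXL4, CREB3L1 and ADAMTS2 below -1.

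Of 10 collagen receptor genes, 8 were tested, 2 were called higher (25% of those tested) and 3 lower (37.5%), beside 26.2% and 25.4% of all genes. ITGA2, the integrin subunit that binds collagen on epithelial cells, rose by 0.47 (SE 0.044, edgeR adjusted p = 9.29e-06). DDR1, a receptor kinase for collagen, was called higher at 0.13 (edgeR adjusted p = 0.0395), but its groups overlapped and 1 of 6 leave-one-out fits kept the call, with adjusted p up to 0.147. ITGA1 (-0.25), the partner subunit ITGB1 (-0.17) and the uptake receptor MRC2 (-0.17) were lower. The weakly expressed genes DDR2 (0.57, edgeR adjusted p = 0.121), ITGA11 (0.53, edgeR adjusted p = 0.0849) and ITGA10 (0.37, edgeR adjusted p = 0.183) were not called.

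Markers of other cell types were read beside the collagen values. Of 12 mesenchymal markers, 10 were tested, and 1 was higher (10% of those tested, beside 26.2% of all genes) and 5 lower (50%, beside 25.4%). Their summed level, most of it from VIM, was 826 to 922 CPM in untreated libraries and 1060 to 1099 CPM with Y-320. VIM, an intermediate filament of mesenchymal cells that many carcinoma lines express, rose from 632 ± 34.3 to 958 ± 15.9 CPM. LUM, PDGFRB, TAGLN, POSTN and FN1 fell, with log2 fold changes of -1.56, -1.82, -1.88, -2.70 and -0.96. POSTN had 58, 66 and 48 counts in untreated libraries and 7, 11 and 9 with Y-320. It passed the filter through the untreated group, so the filter favoured a difference for POSTN. FAP, a fibroblast protease, had 0 to 10 counts and was not tested. The epithelial markers moved too, with 3 of 12 higher (25%) and 9 lower (75%) and a median of -0.65, and KRT5, a keratin of basal cells, fell by 2.44 on the log2 scale. The part of these marker changes in the collagen result was not tested.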

How the data were processed

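RNA-seq of 6 libraries, 3 untreated and 3 treated with Y-320, was used as deposited. The authors deposited estimated counts per gene by Ensembl identifier, not normalised, 47.3% of the collagen values not being whole numbers. The submitters' processing notes name kallisto 0.46.1 and GRCh38 (hg38), and the Ensembl release is not given in the sources used here. Of 40295 identifiers, 35390 matched a gene name.

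Counts were rounded, filtered with filterByExpr (minimum 10, total 15), scaled by TMM and compared by the quasi-likelihood test of edgeR 4.0.16 in R 4.3.3, without a block. DESeq2 1.42.0 and limma 3.58.1 (voom) were alternatives, with other filters, scalings, unrounded counts, a replicate block, left-out libraries and a threshold of 0.01. Sums and chain ratios were compared by two-sided exact permutation tests (scipy 1.17.1, Python 3.11.15). Lengths and coordinates came from GENCODE on GRCh38, and each gene's share of 31-base words found in other genes was counted. Replicate numbers were checked by correlating deviations from the group means.

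All detected collagen genes are named. Of each related list at most 8 genes are named, those with the largest changes in each direction at a mean of at least 1 CPM, plus markers that bear on a result. KRT7, THY1, DCN, FAP and PDGFRA were named after their values were seen. The collagen genes and all lists were chosen with earlier results of these data known.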

Additional observations from a re-analysis of the deposited data

How the results depend on the processing

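Of the 30 collagen genes tested, 21 had the same call under all of the 17 alternative fits that tested them (at the threshold of 0.05), among them 17 of the 22 called genes. The exceptions among called genes were COL5A1, COL5A3, COL4A6, COL8A2 and COL9A2, while COL3A1, COL4A4, COL4A5 and COL23A1 gained a call under at least 1 alternative. No collagen gene changed direction with a call. Leaving out 1 library at a time gave 5 to 6 collagen genes higher and 14 to 19 lower, and a log2 ratio of the summed collagen level from -0.33 to -0.28. Over all genes, these fits called 3917 to 4047 higher and 3748 to 3925 lower, of 16840 to 16892 tested. DESeq2 gave 4 higher and 15 lower, no filter 7 and 17, and an adjusted p under 0.01 gave 4 and 13, where COL5A3, COL4A6, COL8A2, COL9A2 and COL9A3 were lost. Among all genes, DESeq2 called 3405 higher and 3278 lower of 16580, and no filter 4343 and 4079 of 27170. A count over all genes at 0.01 is not given here. Without untreated replicate 3 and Y-320 replicate 2 together, chosen after seeing the data, 6 were higher and 14 lower, and COL5A1 had an adjusted p of 0.0516. That fit called 3503 higher and 3279 lower of 16667 genes. In the exon-union length, levels per kilobase of the detected genes were lower, except for COL8A2 (4669 bases by either length), and the order of levels changed.

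Libraries with the same replicate number showed no shared deviations, with correlations of -0.018, 0.0072 and 0.00088. This cannot tell whether they were handled together, and the labels do not say. With the replicate block, 6 collagen genes were higher and 15 lower, and COL8A2 (-0.57, adjusted p = 0.0573) was no longer called. Over all genes, the block fit called 4285 higher and 4159 lower of 16580. Depth limits the genes under 10 counts, for which an absent difference cannot be told from one not detectable at this depth.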

Other observations

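Over all 16580 genes tested, 6 lay over 1.8 times above the other 2 libraries of their group in both untreated replicate 3 and Y-320 replicate 2. These were COL3A1, DCN and 4 genes matched to no name. PDGFRA, a receptor of fibroblasts that was not among the 6, had 11.1, 11.7 and 29.0 counts in untreated libraries and 5.10, 13.0 and 10.04 with Y-320. Of the 10 mesenchymal markers tested, DCN alone was among the 6. LUM, for example, had 1078, 955 and 993 counts in untreated libraries and 372, 349 and 337 with Y-320.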
